A study of Macaca mulatta with 22 samples.

Results

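A set of 9 genes of cell junctions, cell polarity and fluid transport was followed through macaque preimplantation development. They are the cadherin CDH1, the tight junction genes TJP1, OCLN, CLDN4 and CLDN6, the polarity gene PARD3, the sodium pump subunit ATP1B1 and the water channels AQP3 and AQP11. They were chosen by name, for their parts in compaction and cavitation, out of a table of 35468 entries. Symbols matched 7 of the 9 genes directly, in 8 entries. CLDN4 and CLDN6 carried no such symbol and were taken from the file's WikiGene column, where both names stand beside the RefSeq protein of the same gene, so 10 entries describe the 9 genes. PARD3 has a second entry, IMMRNTR5749, that stayed at 1.41 RPKM or less in every library and is not discussed further.

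The samples are 22 whole single cells or embryos of rhesus macaque (Macaca mulatta), each sequenced on its own. The 7 oocytes were at the germinal vesicle stage, GV, in 2 libraries, at metaphase I, MI, in 2 and at metaphase II, MII, in 3. They had been taken after death from donors given hormones to superovulate. The 15 embryos were 3 pronuclear ones, written PN, then 2 of 2 cells (2C), 3 of 4 cells (4C), 2 of 8 cells (8C), 3 morulae and 2 blastocysts. They had been made by sperm injection and grown in culture, so oocytes and embryos differ in source as well as in stage. No genotype or treatment differs between the stages, and no label names a donor, so p-values measure the spread between single oocytes or embryos, which may share parents. In the main fit that spread is pooled over all stages.

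In mammals the blastomeres of the cleaving embryo flatten against each other at compaction, held by E-cadherin at adherens junctions. Outer cells then take on an apical and a basolateral side, set by the PAR, Crumbs and Scribble protein complexes, and seal the spaces between them with tight junctions. At cavitation the outer layer, the trophectoderm, moves sodium inward with the sodium-potassium pump, and water follows, in part through aquaporins, to fill the blastocyst cavity. Most of this is known from the mouse.

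Levels are RPKM, reads scaled to transcript length and library depth, as the authors deposited them. Estimated depth was lowest, 5.62 M reads, in 8C library 2 and highest, 21.55 M reads, in MII library 3. Morula library 2 stands apart: 4277 entries reached 1 RPKM in it, against 6763 to 10017 in the other libraries, and its correlation with the other 2 morulae on the log2(RPKM + 1) scale was 0.740 and 0.745, while those 2 reached 0.952 with each other. Oocyte and trophectoderm markers followed the labels. The summed level of 9 oocyte genes was 1123 to 7342 RPKM in oocytes and 3.13 to 7.64 RPKM in blastocysts. That of 7 trophectoderm genes was 1220 to 2487 RPKM in blastocysts and at most 89.5 RPKM in any other library. Among 12 cumulus or granulosa genes, 4 were at 0 everywhere, and the summed level was 22.5 to 90.8 RPKM in oocytes and 0.17 to 6.38 RPKM in morulae. It was 27.7 to 73.8 RPKM in blastocysts, nearly all from CYP11A1, and the part of these genes in the results was not tested. Of the inner cell mass genes, NANOG had 130 and 48.5 RPKM in blastocysts and SOX2 0 and 0.072 RPKM. The 6 inner cell mass genes summed to 78.8 to 159 RPKM in blastocysts and 113 to 151 RPKM in morulae. The 6 primitive endoderm genes summed to 17.7 to 29.6 RPKM in blastocysts, against 65.4 to 90.02 RPKM in GV and MI oocytes.

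Differences were tested with limma on log2(RPKM + 1) over all 14312 entries that reached 1 RPKM in at least 2 libraries, and a call is an adjusted p under 0.05. Of the 9 genes, 8 could be tested and AQP3 was too low. A log2 change is the first-named stage minus the second after adding that 1 RPKM, so the change of a gene of low level comes out too small. Over the 9 stages, 7 of the 8 genes varied by limma's F test, as did 68.3% of all entries, and TJP1 did not pass (adjusted p = 0.393). In MII against GV oocytes 0 of 8 genes were called by limma at the adjusted threshold, beside 9.31% of all entries (0.342% higher, 8.97% lower), and 0 had an unadjusted p under 0.05. In 4C embryos against MII oocytes 1 of 8 was called, lower, beside 9.2% of all (3.11% higher, 6.09% lower). Those calls were 445 higher and 871 lower over all entries, and 511 higher and 490 lower after scaling. In 8C against 4C embryos 2 of 8 were called, both higher, beside 24% of all, 13.9% higher and 10.2% lower.

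Between neighbouring stages compared, the morula held the most calls. Morulae against 8C embryos gave 4 of 8 genes called, all lower, where 25.4% of all entries were called, 5.39% higher and 20% lower. The median log2 change was -1.51 over the 8 genes and -0.38 over all entries. Blastocysts against morulae gave 2 of 8 called, both higher, where 14.1% of all entries were called, 12% higher and 2.12% lower. Over all entries these were 1721 higher and 303 lower, and 1469 higher and 660 lower after scaling. Blastocysts against 8C embryos gave 1 higher and 3 lower, beside 27.6% of all entries called, 12.8% higher and 14.7% lower. Blastocysts against MII oocytes gave 3 higher and 3 lower, beside 41.1% of all entries called, 19.7% higher and 21.4% lower. Median-of-ratios scaling shifted the median of all entries in morulae against 8C embryos to -0.25, and it turned the sign of none of the 30 changes of these genes that were called or had an unadjusted p under 0.1. When only the stages compared entered the fit, all 4 calls of morulae against 8C embryos were lost, as were all those of blastocysts against morulae and against 8C embryos. These comparisons share their stages, so their counts are not independent. CLDN4 is among the higher calls in each blastocyst comparison and was fixed by the filter, since only the blastocysts reached 1 RPKM. Without it the higher calls are 1 of 7 against morulae, 0 of 7 against 8C embryos and 2 of 7 against MII oocytes. AQP11 reached 1 RPKM only in the 8C embryos and blastocyst 2, so its calls were also favoured by the filter. It is among the calls of 8C against 4C embryos, of morulae against 8C embryos, and of blastocysts against 8C embryos and MII oocytes. In whole embryos a lower level cannot be told apart between fewer cells holding the RNA and less RNA per cell.

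**Figure D1:**
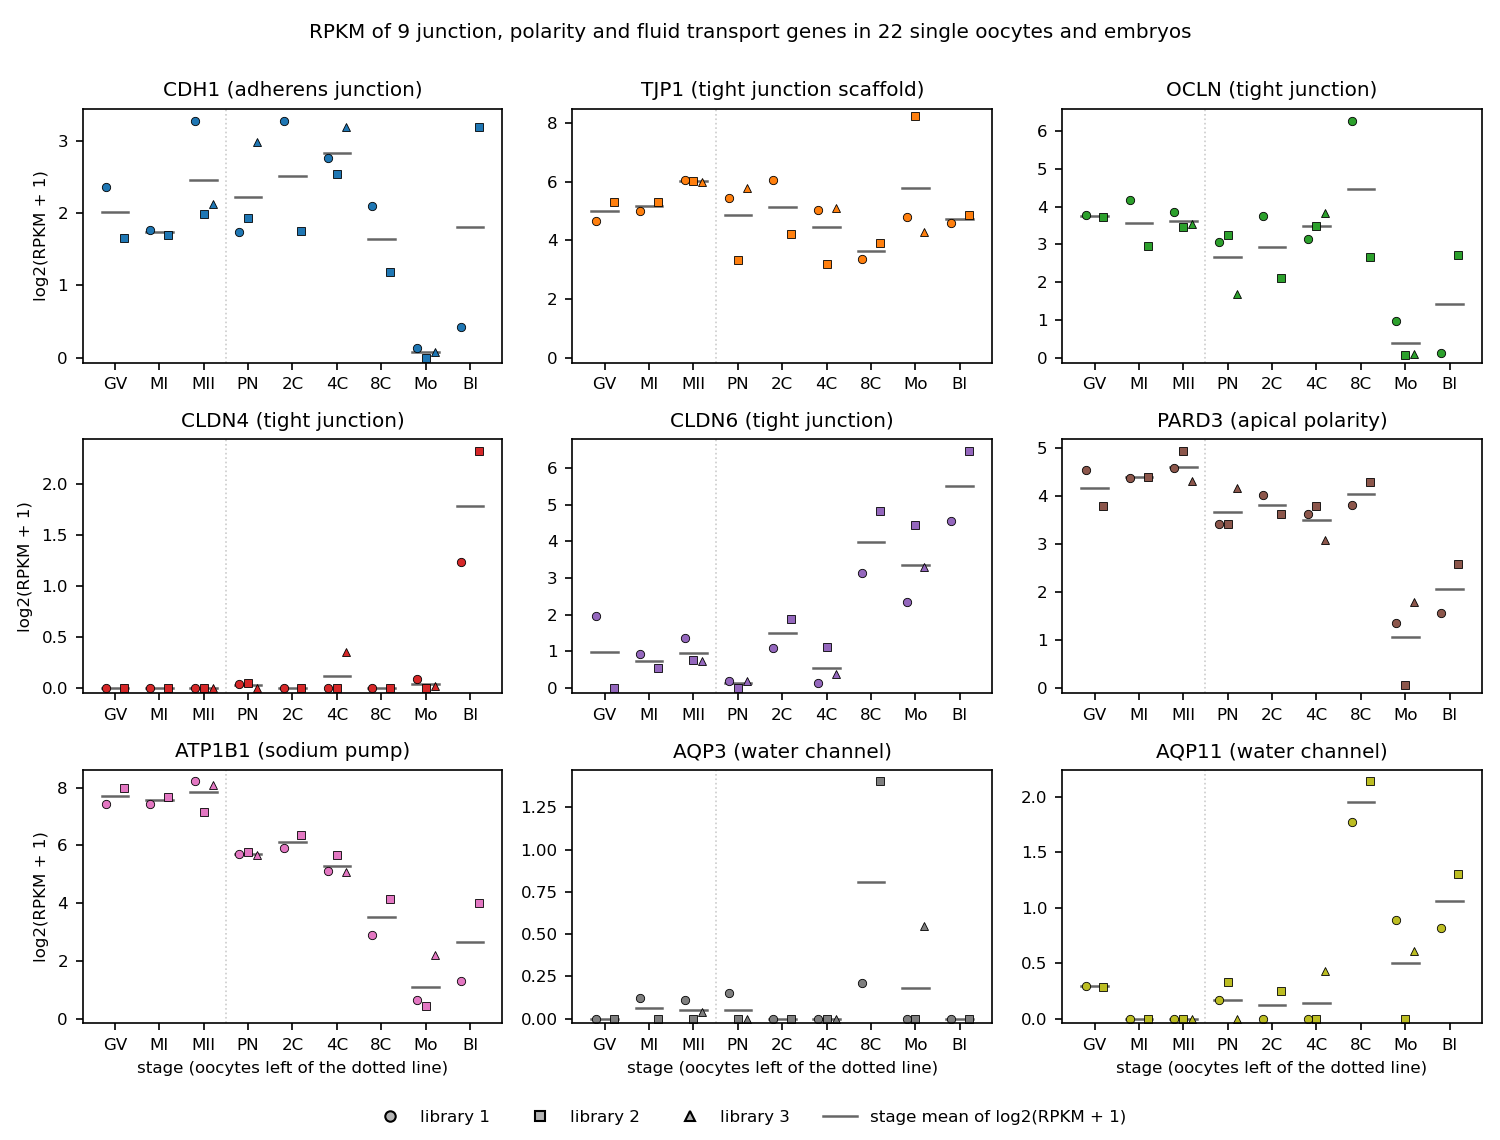
Levels of the 9 genes in every library, as log2(RPKM + 1), by stage; each point is 1 oocyte or embryo, its shape gives the library number, and the bar is the stage mean. CDH1, OCLN, PARD3 and ATP1B1 lie at their lowest in morulae, CLDN4 stands above 1 RPKM in both blastocysts only, and CLDN6 is higher in all libraries of the last 3 stages than in any earlier one.

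E-cadherin, the adhesion molecule of the compacting embryo, is encoded by CDH1 (ENSMMUG00000011850, chr20:67161767-67197035). Its mRNA was present at a low level before the morula, with 2.15 to 8.69 RPKM in the 15 libraries from GV to 4C. It then had 3.26 and 1.27 RPKM in 8C embryos, 0.099, 0 and 0.056 RPKM in the 3 morulae, and 0.341 and 8.12 RPKM in the 2 blastocysts. Every morula lay below every other library, and blastocyst 1 stayed nearly as low while blastocyst 2 was close to the highest oocyte, at 8.68 RPKM. Morulae against 8C embryos gave a log2 change of -1.56 (SE 0.67) that missed the threshold (limma adjusted p = 0.0969). That difference was called without blastocyst 1 or blastocyst 2 (adjusted p = 0.0408 and 0.0399), with a pseudocount of 0.1 (0.00627) and after scaling (0.0492). For blastocysts against morulae the log2 change was 1.73 (SE 0.67, adjusted p = 0.0954), which became 3.12 (0.00969) without blastocyst 1 and was called with the pseudocount of 0.1 (0.0177). With blastocyst 1 alone, assumed to vary like the other stages as in every fit that leaves 1 library in a stage, the level was called lower than in MII oocytes (log2 change -2.03, limma adjusted p = 0.0275), whose libraries had 8.68, 2.95 and 3.34 RPKM. No neighbours in the order of stage means from 4C, the highest, down to 8C were free of overlap, and the step from 8C to the morula was.

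TJP1 (ENSMMUG00000017878, chr7:8787324-8915084) encodes ZO-1, the scaffold that ties tight junction proteins to actin. It was present at 8.21 RPKM or more in all 22 libraries. MII oocytes had 66.0, 63.9 and 63.0 RPKM, 4C embryos 31.6, 8.21 and 33.0 RPKM, and 8C embryos 9.29 and 14.1 RPKM. Morulae had 26.9, 299 and 18.4 RPKM and blastocysts 23.0 and 28.2 RPKM. The value of 299 RPKM belongs to morula 2, the library that stands apart, and the other morulae lay in the range of the earlier stages. All 3 morulae were nevertheless above both 8C embryos, with a log2 change of 2.13 (SE 0.93) that was not called (limma adjusted p = 0.105). The change was 0.90 without morula 2, still not called, and 2.88 without morula 3, then called (adjusted p = 0.0340). The mean of the morulae was 115 ± 160 RPKM (SD, n = 3) with morula 2 and 22.7 RPKM without it. Blastocysts and MII oocytes did not overlap, and no call was made between them (adjusted p = 0.289). In the fit of these 2 stages alone, TJP1 was called lower in blastocysts (adjusted p = 0.0112, log2 change -1.30).

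OCLN (ENSMMUG00000006216, chr6:67371077-67429999) encodes occludin, a membrane-spanning protein of the tight junction strand. It was held at 2.21 to 17.0 RPKM in oocytes and embryos up to 4C. The 8C embryos had 76.6 and 5.36 RPKM, the morulae 0.943, 0.057 and 0.066 RPKM, and the blastocysts 0.095 and 5.56 RPKM. The 8C embryos differed from each other 14.3 times, and the higher of them was the highest library of the series for this gene. Morulae fell relative to 8C embryos without overlap, with a log2 change of -4.10 (SE 0.86, limma adjusted p = 0.00155). Without the high 8C library the change was -2.29 and lost the call (adjusted p = 0.0732), and without 8C library 2 the 8C level was called higher than that of 4C embryos (log2 change 2.79, 0.0308). OCLN was also lower in blastocysts than in 8C embryos (log2 change -3.05, SE 0.95, limma adjusted p = 0.0214), although blastocyst 2 lay above 8C library 2. That call was lost without 8C library 1 (-1.25, 0.385) and without blastocyst 1 (-1.76, 0.308). Against MII oocytes, with 13.5, 10.1 and 10.6 RPKM, blastocysts were lower (-2.20, SE 0.86, limma adjusted p = 0.0483). This last call stood near the threshold, was lost in 14 of the 22 fits that left out 1 library, and became -0.91 (0.557) without blastocyst 1.

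Claudins are the proteins that form the tight junction strands and set what passes between cells. CLDN4 (ENSMMUG00000009633, chr3:51368748-51372557) was listed at 0 in 15 libraries and appeared in blastocysts. Blastocysts had 1.36 and 4.00 RPKM, estimated as 63 and 218 reads, against 0.066, 0 and 0.015 RPKM in morulae and 0 RPKM in both 8C embryos. The only other library with more than 4 reads was 4C library 3, with 0.277 RPKM and 15 reads. The 3 reads that a count of 0 allows would be 0.038 and 0.140 RPKM in the 8C embryos, so both blastocysts lay above that limit. CLDN4 was higher in blastocysts than in morulae (log2 change 1.74, SE 0.25, limma adjusted p = 8.42e-05), than in 8C embryos (1.78, SE 0.27, 7.30e-05) and than in MII oocytes (1.78, SE 0.25, 1.37e-05). It entered the test only through the 2 blastocysts, so without either of them it was not tested, and a gene so selected had to differ.

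CLDN6 (ENSMMUG00000003094, chr20:3161609-3165481) reached higher levels and rose earlier. Levels were 0 to 2.93 RPKM in the 15 libraries up to 4C, with 0.109, 1.18 and 0.314 RPKM at 4C. The 8C embryos had 7.81 and 27.1 RPKM, the morulae 4.04, 20.6 and 8.74 RPKM, and the blastocysts 22.6 and 86.7 RPKM. All 7 libraries from 8C onward were above all earlier ones. The rise at 8C against 4C was called (log2 change 3.42, SE 0.69, limma adjusted p = 0.00120) and stayed called without any 1 library. CLDN6 was 56.4 times higher in blastocysts than in MII oocytes by the stage means, 23.3 times from blastocyst 1 alone and 89.5 times from blastocyst 2 alone (log2 change 4.56, SE 0.69, limma adjusted p = 3.46e-05). Blastocysts were above morulae without overlap (log2 change 2.16, SE 0.69, limma adjusted p = 0.0435), but the call was lost in 13 of the 22 fits that left out 1 library. Among these, without blastocyst 2 the change was 1.21 (0.471) and without morula 1 it was 1.65 (0.140). It was also lost after scaling (1.58, 0.186), when 0.1 was added in place of 1 (2.28, 0.224) and when low entries were kept (0.0689). Blastocysts and 8C embryos overlapped, and their log2 change of 1.53 was not called (adjusted p = 0.149).

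PARD3 (ENSMMUG00000019156, chr9:34294959-34889300) encodes the PAR-3 scaffold, which with PAR-6 and atypical protein kinase C marks the apical domain of polarised blastomeres. Its level was even through cleavage and dropped at the morula. MII oocytes had 22.9, 29.8 and 19.0 RPKM, 4C embryos 11.4, 12.9 and 7.45 RPKM, and 8C embryos 13.002 and 18.6 RPKM. Morulae had 1.57, 0.043 and 2.46 RPKM and blastocysts 1.95 and 4.98 RPKM. Every library up to 8C was above every morula and blastocyst, and the lowest morula was again library 2. Morulae were lower than 8C embryos (log2 change -2.98, SE 0.52, limma adjusted p = 0.000259), and the change lay between -3.34 and -2.47 and stayed called when any 1 library was left out. Blastocysts were lower than MII oocytes (-2.54, SE 0.52, limma adjusted p = 0.000582), likewise called without any 1 library. They were also lower than 8C embryos (-1.98, SE 0.56, limma adjusted p = 0.0133), a call lost without 8C library 2 (-1.74, 0.0840), without blastocyst 1 (-1.47, 0.163) or with a pseudocount of 0.1 (-2.28, 0.0933). Between 4C embryos and MII oocytes, which did not overlap, the log2 change of -1.11 was not called (adjusted p = 0.156), nor were blastocysts against morulae (0.234).

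**Figure D2:**
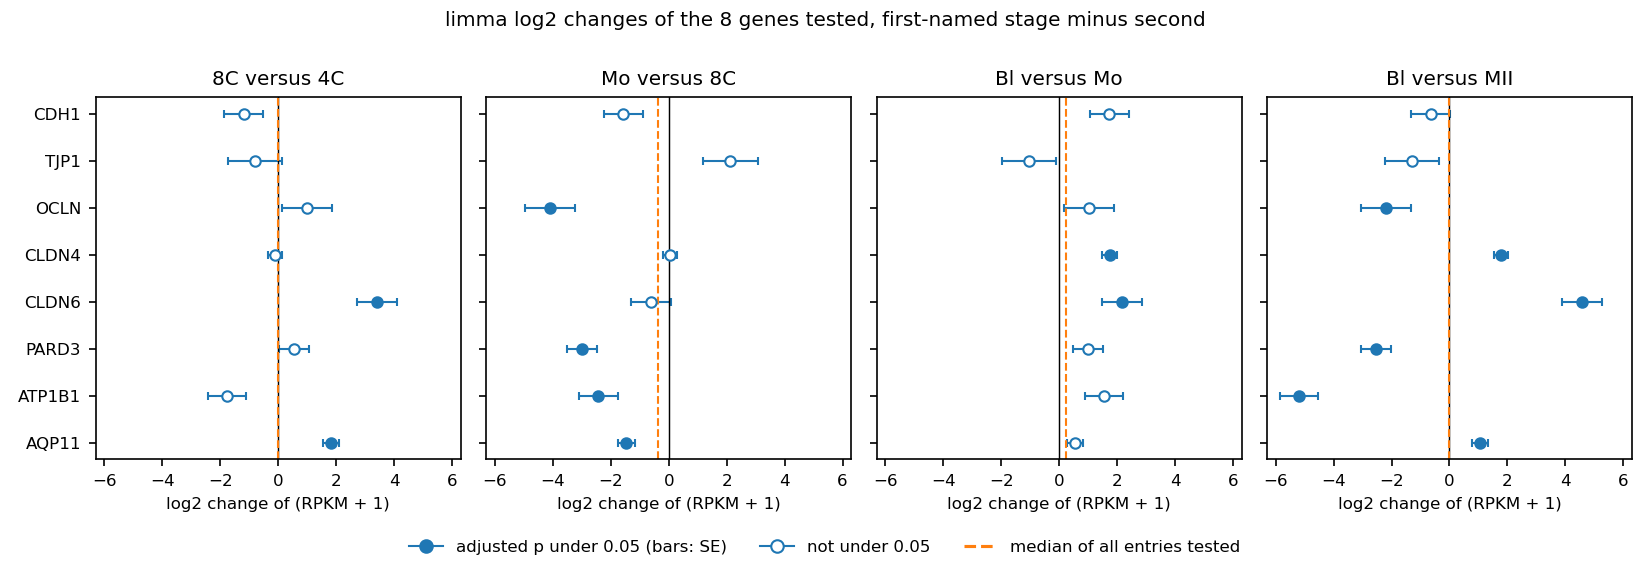
Log2 changes of the 8 genes tested in 4 comparisons, first-named stage minus second, with SE bars; filled points have a limma adjusted p under 0.05 and the dashed line is the median of all 14312 entries. OCLN, PARD3, ATP1B1 and AQP11, filled, lie left of the line in morulae against 8C embryos, as do CDH1 and CLDN6, which are open. In blastocysts against MII oocytes CLDN6 reaches 4.56 and ATP1B1 -5.18.

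ATP1B1 (ENSMMUG00000021078, chr1:198839521-198865744), the beta-1 subunit that the catalytic subunit of the sodium-potassium pump needs to reach the membrane, was the most abundant of the 9 genes in oocytes. MII oocytes had 299, 143 and 273 RPKM, a stage mean above 97.8% of all tested entries. The level then stepped down: 50.5, 53.6 and 49.3 RPKM in PN embryos, 58.6 and 80.7 in 2C, 33.7, 49.2 and 32.8 in 4C, 6.41 and 16.6 in 8C, and 0.567, 0.355 and 3.55 in morulae. Blastocysts had 1.46 and 15.1 RPKM. All 7 oocytes, which differ from the embryos in source, were above all 15 embryos, and morulae were below every library up to 8C. The fall at 4C against MII was called (log2 change -2.55, SE 0.59, limma adjusted p = 0.00997), except without MII library 1 (-2.35, 0.0535). The step at 8C against 4C, with no overlap, missed the threshold (-1.77, SE 0.66, limma adjusted p = 0.0587), and was called in 5 of the 22 fits that left out 1 library, those without 8C library 2 (-2.39, 0.0485), either blastocyst, morula 2 or morula 3 (0.0208 to 0.0408).

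At the morula, ATP1B1 was lower again than at 8C (log2 change -2.42, SE 0.66, limma adjusted p = 0.0104), a call lost without 8C library 2 (-1.80, 0.141). The mean of the 3 morulae was 1.49 ± 1.79 RPKM (SD), and 0.461 RPKM without morula 3. Blastocysts were far below MII oocytes, with 8.26 ± 9.61 RPKM (n = 2) against 238 ± 83.7 RPKM (n = 3), a log2 change of -5.18 (SE 0.66, limma adjusted p = 5.01e-06) that ranged between -6.53 and -3.83 and stayed called when any 1 library was left out. Between blastocysts and morulae the log2 change of 1.56 (SE 0.66) was not called (adjusted p = 0.132). It was 2.91 (0.0135) without blastocyst 1 and 2.11 (0.0368) without morula 3, both called, and blastocyst 1 lay within the range of the morulae. Without blastocyst 2, ATP1B1 was called lower in blastocyst 1 than at 8C (-2.21, 0.0323). The ATP1B1 entry overlaps the entry of NME7 at its end. NME7 had 113 to 232 RPKM in MII oocytes, 11.3 to 19.5 RPKM at 8C and 4.27 to 6.49 RPKM in blastocysts, and reads of the shared stretch cannot be told apart if strand was not used.

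Other genes of the pump were set beside ATP1B1. ATP1B3 (ENSMMUG00000012256), an alternative beta subunit, had 0 to 9.57 RPKM up to 4C, 102 and 99.3 RPKM at 8C, 101, 115 and 71.5 RPKM in morulae, and 8.48 and 42.6 RPKM in blastocysts. Its 8C libraries were far above its 4C libraries of 0, 1.07 and 3.33 RPKM (log2 change 5.61, SE 0.60, limma adjusted p = 1.31e-06), where ATP1B1 was lower in every 8C library. Blastocysts were lower than morulae for ATP1B3 (-2.22, limma adjusted p = 0.0167) and lower than 8C embryos (-2.32, 0.0123), calls that were lost without blastocyst 1 (0.384 and 0.266). A second ATP1B3 entry on chromosome 13 reached 26.2 RPKM, in 8C library 1, so reads may be split between copies.

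FXYD3, a small membrane protein that modulates the pump, was listed at 0 in 18 libraries and had 7.96 and 12.1 RPKM in blastocysts, against 0 RPKM in every morula and 8C embryo. The call for blastocysts against morulae (limma adjusted p = 6.11e-08) came with a fitted change of 3.43 that depends on the pseudocount, and FXYD3 was tested only because both blastocysts were above 1 RPKM. The list of 13 further pump genes matched gave 8 tested, of which 1 rose and 1 fell in blastocysts against morulae, 25% beside 14.1% of all entries. Those 2 were FXYD3, fixed by the filter, and ATP1B3, and without blastocyst 1 both counts were 0.

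**Figure D3:**
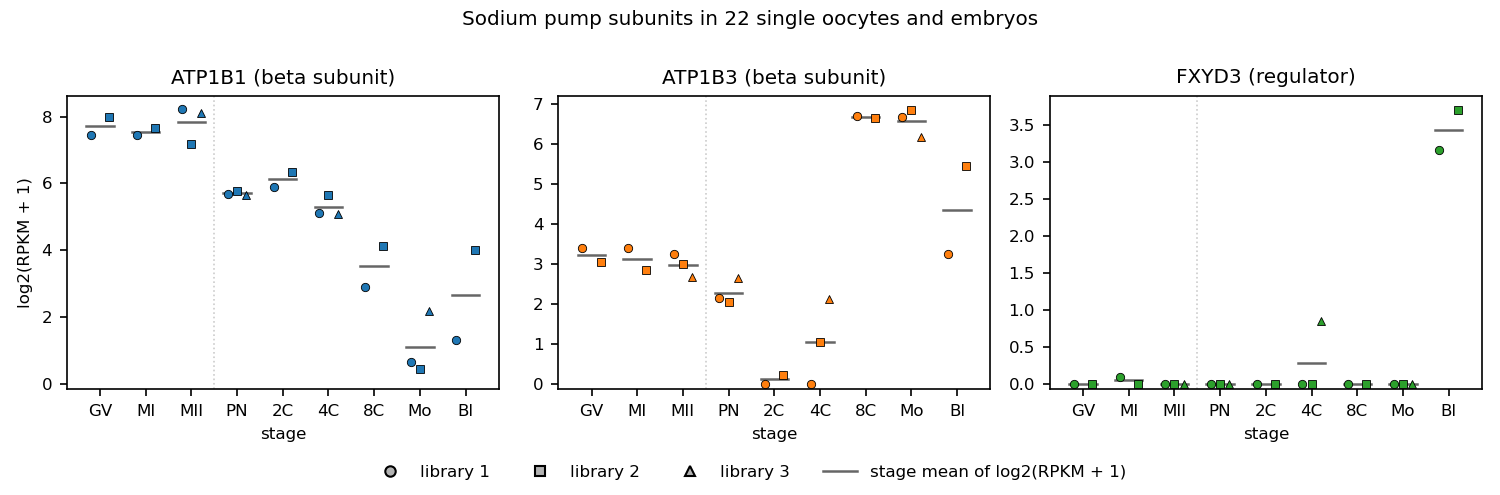
Levels of 3 sodium pump genes in every library as log2(RPKM + 1), by stage, with the bar at the stage mean and the point shape giving the library number. ATP1B1 is highest in oocytes, ATP1B3 in 8C embryos and morulae at 71.5 to 115 RPKM, and FXYD3 is at 7.96 and 12.1 RPKM in the blastocysts.

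Both water channels of the panel were at 3.40 RPKM or less in every library. AQP3 (ENSMMUG00000003314, chr15:43775005-43966608), a channel for water and glycerol, had 0.158 and 1.65 RPKM at 8C, estimated as 6 and 17 reads, and 0.462 RPKM, or 15 reads, in morula 3. All other libraries had 3 reads or fewer, and both blastocysts had 0, where 3 reads would be 0.134 and 0.114 RPKM. With no filter on low values, limma called AQP3 higher at 8C than at 4C (log2 change 0.81, adjusted p = 0.0261) and lower in blastocysts than at 8C (-0.81, 0.0357), and 8C library 2 holds most of the 8C level. In that fit AQP3 did not pass limma's F test over the stages (adjusted p = 0.167). Morulae against 8C embryos were not called either (limma adjusted p = 0.0759). The deposited span of the AQP3 entry covers 191604 bases and encloses entries of AQP7, CHMP5 and NFX1. CHMP5 reached 211 RPKM in a blastocyst whose AQP3 value was 0.

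AQP11 (ENSMMUG00000018944, chr14:75778955-75803317), an aquaporin found mainly on inner membranes of the cell, was at 0.347 RPKM or less in all 15 libraries up to 4C. The 8C embryos had 2.42 and 3.40 RPKM (81 and 31 estimated reads), the morulae 0.848, 0 and 0.523 RPKM, and the blastocysts 0.760 and 1.46 RPKM (15 and 34 reads). Both 8C embryos were above every other library. Only they and blastocyst 2 reached 1 RPKM, so AQP11 was tested only through libraries where it was high. Its calls were favoured by that filter. AQP11 rose at 8C against 4C (log2 change 1.81, SE 0.28, limma adjusted p = 9.63e-05) and fell in morulae against 8C embryos (-1.46, SE 0.28, limma adjusted p = 0.000720), and both calls stayed when any 1 library was left out. Blastocysts were higher than MII oocytes, which were all at 0 (fitted change 1.06, limma adjusted p = 0.00527), a call lost without blastocyst 2 (0.82, 0.0814). They were lower than 8C embryos (-0.90, SE 0.31, limma adjusted p = 0.0362), a call lost without 8C library 2 (-0.72, 0.177), without blastocyst 1 (-0.66, 0.269) or with a pseudocount of 0.1 (0.377). Blastocysts against morulae gave 0.56, not called (adjusted p = 0.219). Of the 9 other aquaporin genes matched, 2 were tested, AQP4 and AQP6. AQP4, named after its values were seen, had a stage mean of 6.41 RPKM in MI oocytes and at most 0.003 RPKM from 8C onward. AQP5 and AQP7 were at 0 in every library. The AQP6 entry IMMRNTR5752 had 13.4, 0 and 4.04 RPKM in morulae, against 0 RPKM at 8C, and was called higher (limma adjusted p = 0.0246) although its groups overlap at 0. Outside the morulae it reached 1 RPKM only in GV library 1, so it passed the filter through the stage where it was high.

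Across the 9 gene lists of junctions, polarity and transport, the 9 genes left out, 78 genes were tested. In morulae against 8C embryos 6 rose and 10 fell, which is 20.5% called and near the 25.4% of all entries. In blastocysts against morulae 10 rose and 5 fell (19.2%, with 14.1% of all), and in blastocysts against 8C embryos 12 rose and 12 fell (30.8%, with 27.6% of all). These shares are close to the background. The higher counts of both blastocyst comparisons include CLDN7 and FXYD3, whose calls were fixed by the filter, since only the blastocysts reached 1 RPKM. With 1 blastocyst left out, neither gene was tested. PKP2, also among the higher counts, reached 1 RPKM outside the blastocysts only in morula 1. Without morula 2 the counts were 3 higher and 11 lower in morulae against 8C embryos, and 14 and 3 in blastocysts against morulae. Blastocysts against morulae gave 7 and 0 without blastocyst 1, and 4 and 5 without blastocyst 2. Blastocysts against 8C embryos gave 8 and 5 without blastocyst 1 and 6 and 10 without blastocyst 2.

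**Figure D4:**
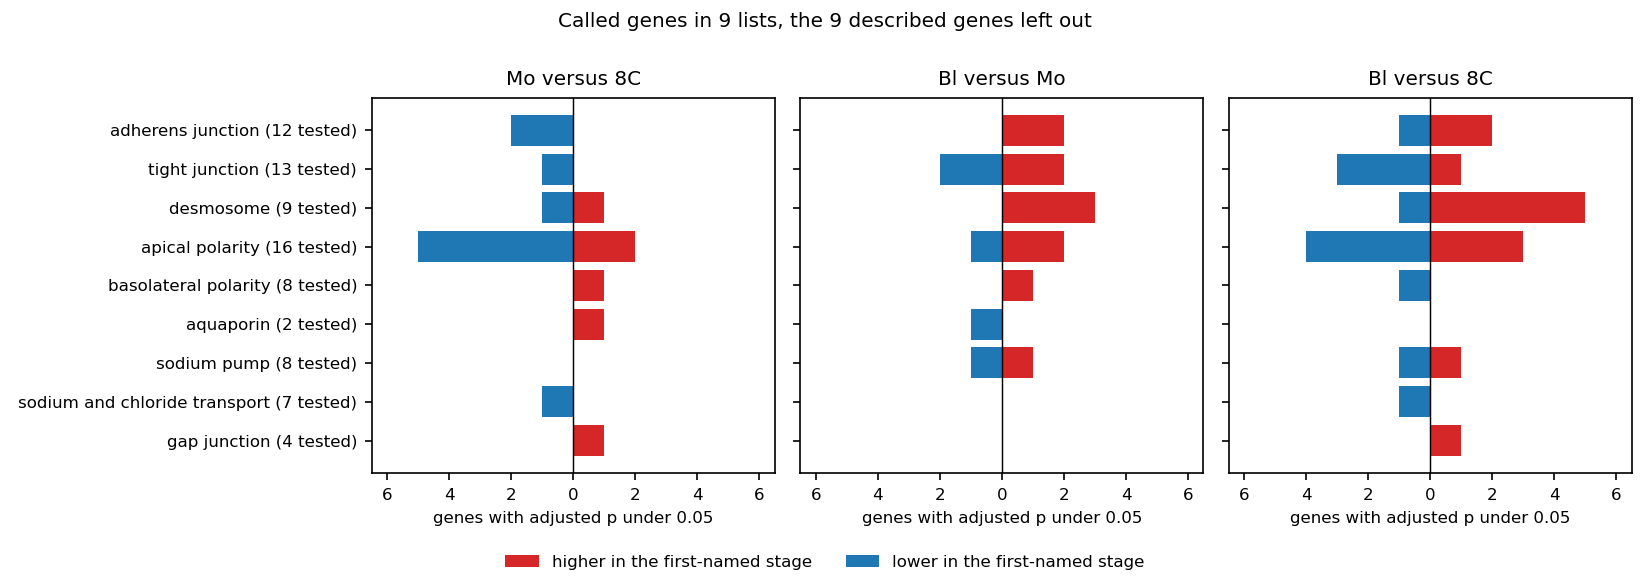
Genes with a limma adjusted p under 0.05 in each of 9 lists, higher in the first-named stage to the right and lower to the left, with the number tested beside each list name. The desmosome list has 5 higher and 1 lower in blastocysts against 8C embryos, and the apical polarity list has 2 higher and 5 lower in morulae against 8C embryos.

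Of 16 apical polarity genes tested, among them partners of PARD3, 2 rose, 5 fell and 9 were not called in morulae against 8C embryos. Called genes were 43.8% of the list and 25.4% of all entries, with a median log2 change of -0.24 over the list and -0.38 over all entries. The members that fell were PARD3B, PARD6A, PARD6B and PARD6G, relatives of PAR-3 and PAR-6, and MPDZ, a multi-PDZ scaffold. PARD6B had 0.806, 0 and 0.677 RPKM in morulae against 3.57 and 5.07 RPKM at 8C (log2 change -1.86, limma adjusted p = 0.0120). PARD3B had 0.086, 0.027 and 0.450 RPKM against 5.55 and 2.83 RPKM (-2.09, limma adjusted p = 0.00149), and MPDZ 0.515, 0.013 and 0.336 RPKM against 3.37 and 4.36 RPKM (-1.93, limma adjusted p = 0.00296). The members that rose were PALS1, a Crumbs complex scaffold, and RDX, radixin, which links membrane proteins to actin. RDX had 198, 1682 and 209 RPKM in morulae against 32.2 and 34.8 RPKM at 8C (3.58, limma adjusted p = 0.000886), and PALS1 had 20.9, 90.9 and 23.5 RPKM against 2.86 and 5.39 RPKM (2.88, 0.000527). Both were highest in morula 2 and both stayed called without it (adjusted p = 0.000560 and 0.000958).

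In blastocysts against 8C embryos the same list had 3 higher and 4 lower of 16. The higher ones were EZR, ezrin, with 94.1 and 69.0 RPKM in blastocysts against 16.6 and 11.7 RPKM at 8C (log2 change 2.45, limma adjusted p = 0.0157), NHERF1, its binding partner (2.08, 0.0298), and CRB3, a Crumbs protein (1.93, 0.0137). None of these 3 kept its call without blastocyst 1 (0.0586 to 0.183). Without blastocyst 1 the list had 0 higher and 2 lower, and without blastocyst 2 it had 1 and 2. The lower ones were PARD3B, PARD6A, PARD6B and PARD6G. PARD3B and PARD6B kept their calls without either blastocyst (adjusted p from 0.00982 to 0.0423). Against morulae, EZR was higher in blastocysts (3.09, limma adjusted p = 0.00321; 0.0505 without blastocyst 1), as was CRB3 (1.53, 0.0487; 0.172 and 0.194 without either blastocyst, 0.0580 after scaling), and PALS1 was lower (-2.25, 0.00766; 0.0950 without blastocyst 1).

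Desmosome genes, which anchor keratin filaments at cell contacts, were followed next. Of 9 tested, 5 rose, 1 fell and 3 were not called in blastocysts against 8C embryos, 66.7% called beside 27.6% of all entries, with a median log2 change of 1.72 over the list and -0.04 over all entries. Against morulae 3 rose and 6 were not called, 33.3% called beside 14.1% of all entries (median 1.10, and 0.23 over all entries). PKP2, plakophilin 2, had 15.6 and 25.8 RPKM in blastocysts against 1.61, 0 and 0.897 RPKM in morulae (3.63, limma adjusted p = 7.65e-06) and 0 and 0.984 RPKM at 8C (3.91, 3.38e-06). JUP, plakoglobin, which also serves adherens junctions, had 10.96 and 10.4 RPKM against 0.054, 2.499 and 0.719 RPKM in morulae (2.65, limma adjusted p = 0.00197). Both kept their calls without either blastocyst, but PKP2 reached 1 RPKM outside the blastocysts only in morula 1. PKP2 thus passed the filter through the stage where it was high. PERP, a membrane protein of desmosomes, had 18.6 and 57.2 RPKM against 0.848, 11.1 and 2.47 RPKM in morulae (2.99, limma adjusted p = 0.0121; 0.172 without blastocyst 2). DSP, desmoplakin, had already risen in morulae, with 4.96, 13.7 and 6.46 RPKM against 1.42 and 2.45 RPKM at 8C (1.59, limma adjusted p = 0.0153; 0.0583 without morula 2). DSC3, a desmosomal cadherin, fell there (-1.16, limma adjusted p = 0.00794). Only the 8C embryos and morula 1 reached 1 RPKM for DSC3, so it too passed the filter through the stage where it was high. Without blastocyst 2 the list had 2 higher and 2 lower of 8 tested against 8C embryos. Trophectoderm keratins moved with this list: KRT18 had 1206 and 880 RPKM in blastocysts and at most 69.2 RPKM in morulae and 8C embryos, and its part in the counts was not tested.

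Further tight junction genes split by member, as the panel did. Of 13 tested, 1 fell in morulae against 8C embryos: JAM2, a junctional adhesion molecule, with 0.279, 0 and 0.159 RPKM against 4.46 and 5.84 RPKM (log2 change -2.42, limma adjusted p = 8.91e-05). In blastocysts against morulae 2 rose and 2 fell, 30.8% called beside 14.1% of all entries. These counts were 0 and 0 without blastocyst 1, 0 and 2 without blastocyst 2, and 2 and 0 without morula 2. CLDN7 had 5.25 and 2.23 RPKM in blastocysts and 0 RPKM in all morulae (fitted change 2.17, limma adjusted p = 7.88e-06), and like CLDN4 it was tested only through the blastocysts. CLDN12, at 40.3 to 157 RPKM in the 15 libraries up to 4C, had 0.212 and 5.53 RPKM in blastocysts against 26.1 and 37.9 RPKM at 8C (-3.53, limma adjusted p = 0.00112; 0.0440 and 0.000216 without either blastocyst). CLDN11 was lower in blastocysts than in morulae (-2.28, 0.0468) and lost the call without morula 2 or either blastocyst (0.0543 to 0.246).

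Among adherens junction genes, 2 of 12 fell in morulae against 8C embryos and 10 were not called, near the 20% of all entries that were lower. After scaling 1 rose, VEZT, and 1 fell. CTNNA1, alpha-catenin, which links cadherins to actin, had 11.2, 15.05 and 19.3 RPKM in morulae against 37.7 and 91.7 RPKM at 8C (log2 change -1.92, limma adjusted p = 0.00244). CDH3, P-cadherin, had 3.09, 2.13 and 7.59 RPKM against 9.998 and 17.2 RPKM (-1.56, limma adjusted p = 0.0272), and lost the call without morula 2 (0.0637) or after scaling (0.0797). CDH3 was the more abundant cadherin before that, with 39.8 to 172 RPKM in the 15 libraries up to 4C, where CDH1 had at most 8.69 RPKM. CTNNA1 was higher in blastocysts, with 40.8 and 40.5 RPKM, than in morulae (1.39, limma adjusted p = 0.0344), a call lost after scaling (0.260) and without either blastocyst. NECTIN2, an adhesion molecule of the same junctions, had 11.5 and 17.1 RPKM in blastocysts against 3.01 and 1.82 RPKM at 8C (2.16, limma adjusted p = 0.0160; 0.0952 without blastocyst 2).

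The remaining lists held few calls. Of 8 basolateral polarity genes, LIN7C rose in morulae, with 67.7, 691 and 51.6 RPKM against 27.4 and 25.6 RPKM at 8C (log2 change 2.30, limma adjusted p = 0.0333), a call lost without morula 2 (0.0918). DLG3, a scaffold of the DLG family, had 8.52 and 3.48 RPKM in blastocysts against 0.059, 0 and 0.357 RPKM in morulae (2.53, limma adjusted p = 0.000974). SLC12A2, a sodium, potassium and chloride cotransporter, was the single call of 7 ion transport genes in blastocysts against 8C embryos, with 0.067 and 0.358 RPKM against 3.14 and 10.8 RPKM (-2.54, limma adjusted p = 0.00502). GJA1, connexin 43, was the single call of 4 gap junction genes, with 8.81 and 45.5 RPKM in blastocysts against 0 and 0.120 RPKM at 8C (4.33, limma adjusted p = 0.00171), and 2.93, 43.8 and 1.47 RPKM in morulae, called higher than at 8C (0.0188) but not without morula 2 (0.0548). Of the gap junction genes, 7 were at 0 in every library.

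**Figure D5:**
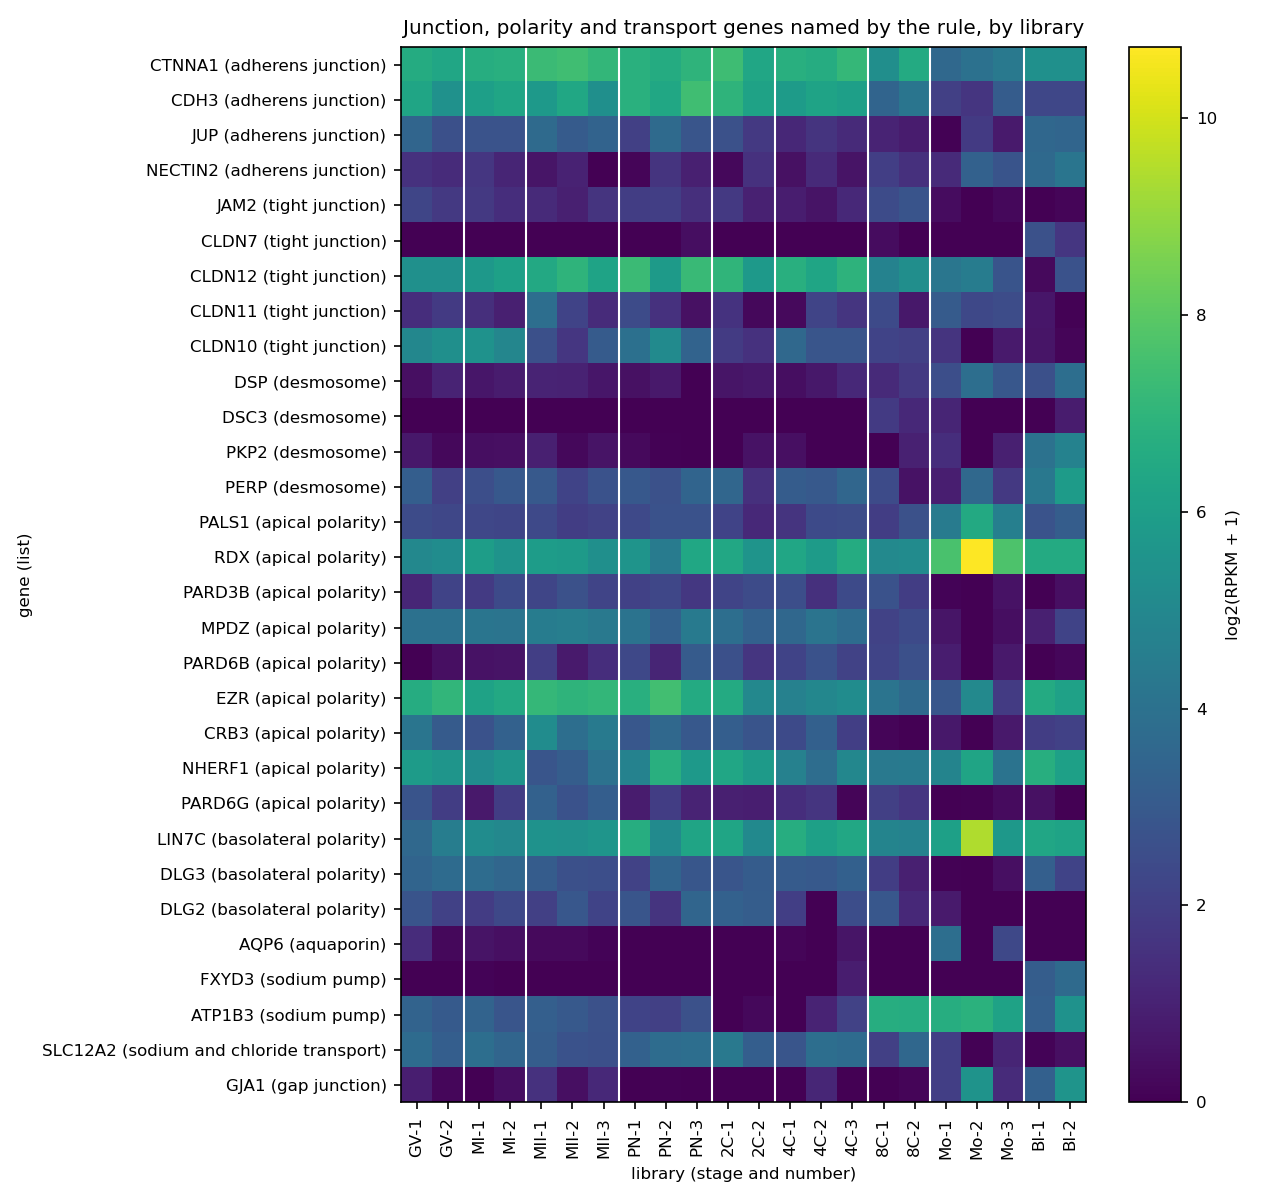
Levels of list genes named by rule, as log2(RPKM + 1), in each of the 22 libraries, with white lines between stages. CTNNA1, CDH3 and CLDN12 are high up to 4C, RDX and LIN7C are brightest in morula 2 at 1682 and 691 RPKM, and PKP2, CLDN7 and FXYD3 appear in both blastocysts.

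The 2 blastocysts differed for most of the panel. Blastocyst 2 was higher than blastocyst 1 for all 8 genes with a value, 58.5 times for OCLN, 23.8 times for CDH1, 10.3 times for ATP1B1, 3.8 times for CLDN6, 2.9 times for CLDN4, 2.6 times for PARD3, 1.9 times for AQP11 and 1.2 times for TJP1. Of all tested entries, 53.6% were higher in blastocyst 2, and 46.9% after scaling, when TJP1 had 26.6 RPKM in blastocyst 2 and 27.5 RPKM in blastocyst 1 and the other 7 genes kept their direction. COL4A1 and LAMA1, 2 of the 6 primitive endoderm markers and not named by a set rule, differed the same way. They were at 3.55 and 6.86 RPKM in blastocyst 2 and 0 in blastocyst 1. KRT8 went the other way, with 263 RPKM in blastocyst 2 and 1236 RPKM in blastocyst 1, and GATA3, a trophectoderm transcription factor, was at 21.2 and 15.9 RPKM. Whether the embryos were of equal age or expansion is not given in the labels, and its part in the difference was not tested.

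Over all 22 libraries, the members fell into patterns shared with other genes. Among pairs of members, ATP1B1 and PARD3 were most alike (Pearson r = 0.873 on the log2(RPKM + 1) scale) and ATP1B1 and CLDN6 least (r = -0.65). Libraries of a stage share that stage, so these values describe stage patterns. Of 10976 candidate genes, those most like each member were DUSP16 and BMP6 for ATP1B1 (r = 0.966 and 0.96), SERINC5 and OFD1 for PARD3 (0.94 and 0.929), and ABCC5 and MTMR8 for OCLN (0.857 and 0.846). NID2 and CMTM6 were closest to CDH1 (0.881 and 0.877), AFG3L2 and CASK to CLDN6 (0.918 and 0.915), and DYRK2 and ZNF114 to AQP11 (0.965 and 0.945). For CLDN4 they were LOC100424724 and SLC7A4 (0.99 each), whose stage means were 0.05 RPKM or less before the blastocyst. ZMPSTE24 and STARD7 were closest to TJP1 (0.882 and 0.85).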

How the data were processed

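Single oocytes and embryos were amplified by means of a SMARTer Ultra Low Input kit and made into libraries with a TruSeq DNA kit, per the labels' protocols. The authors deposited 1 table of RPKM per entry and library, with genome build Mmul_8.0.1 per the submitters' processing notes. The counting, its treatment of strand and of shared reads are not given in the sources used here, and the file names no build for its coordinates. Depth is not in the file. It was estimated from the steps between low values of entries under 200 bp. Of 481 such values, 437 (90.9%) lay within 0.05 of a whole read, which is no independent check, since the step came from the same values. Reads per gene also used a length chosen to bring a gene's low values near whole reads, so they are estimates. RPKM keeps no full record of depth, and reads were not counted as molecules.

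The members and gene lists were chosen with earlier results of these data known. Entries were named by Ensembl symbol, then associated name, then the WikiGene column (1627 entries, of which 668 carry a RefSeq accession and 547 of those have the same name in RefSeq). Levels were turned into log2(RPKM + 1) from the deposited values and fitted with limma 3.58.1 in R 4.3.3, with 1 mean per stage over all 22 libraries and 13 residual degrees of freedom. Entries reaching 1 RPKM in at least 2 libraries were kept (14312). P-values were adjusted over these by the Benjamini-Hochberg method for each comparison, two-sided. The code was tested on simulated data. Tables and figures were made with Python 3.11.15, numpy 2.4.6, pandas 2.3.3 and matplotlib 3.10.9.

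Changes are printed for the 30 gene and comparison pairs that were called or had an unadjusted p under 0.1, and for other fits where a call changed. List genes are named when they were among the 3 called with the smallest limma adjusted p per list, direction and comparison. A list gene with several entries was represented by the entry with the highest mean over all libraries. Among the genes named, this holds for CDH3, RDX, PERP, PARD6A, DLG2, AQP6 and ATP1B3. The 2 genes most correlated with each member are also named. Fitted changes against a group at 0 depend on the pseudocount and are no bounds. Median-of-ratios scaling moved the median change of all entries by over 0.1 in MII against GV (-0.05 scaled, -0.19 unscaled), morula against 8C (-0.25 and -0.38) and blastocyst against morula (0.07 and 0.23). Alternatives were a pseudocount of 0.1, no filter, a filter of 5 RPKM, scaling, only the stages compared, a replicate block, and leaving out each library. Sequences were not used here. Intervals at 3 reads cover counting error only. Some genes of the lists are counted but not reported here by name.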

Additional observations from a re-analysis of the deposited data

How the results depend on the processing

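Each stage has 2 or 3 libraries. The main fit pools the spread over all stages, though libraries of a stage were not equally alike. Their correlation was 0.972 in GV and in MI oocytes, 0.836 at 8C, 0.740 to 0.952 in morulae and 0.916 in blastocysts. With only the stages compared in the fit, the spread comes from those fewer libraries alone. The count was then 1 in MII against GV (0 with all stages) and 0 in morulae against 8C embryos (4). It was 0 in blastocysts against morulae (2) and 0 in blastocysts against 8C embryos (4). Blastocysts against morulae gave 1 with no filter and after scaling, where CLDN6 lost its call, and 1 with at least 5 RPKM. Blastocysts against 8C embryos gave 2 with a pseudocount of 0.1, where AQP11 and PARD3 lost theirs, and 2 with at least 5 RPKM. CLDN4 and AQP11 had at most 4.00 and 3.40 RPKM in any library, so a filter of 5 RPKM left them untested. The cause of the changes with only the stages compared was not tested.

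Leaving out 1 library at a time gave 0 to 0 calls in MII against GV, 0 to 1 in 4C against MII, 2 to 4 in 8C against 4C, 3 to 5 in morulae against 8C, 0 to 3 in blastocysts against morulae, 0 to 4 in blastocysts against 8C, 4 to 6 in blastocysts against MII, and 6 to 7 over all stages. Among the printed changes refitted under alternatives, 754 kept their side of the threshold, 57 lost a call, 15 gained one and 0 changed sign.

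Over all entries, MII against GV called 1333, and 636 with a pseudocount of 0.1, 601 after scaling and 2351 with only the stages compared. With only the stages compared, morulae against 8C called 1247 (3636 with all stages), blastocysts against morulae 411 (2024) and blastocysts against 8C 0 (3944). Leaving out 1 library moved these counts by over 1.5 times in MII against GV without GV library 1 (231), GV library 2 (453), MII library 2 (703) or morula 2 (2007), and in 8C against 4C without 8C library 1 (2150). Without blastocyst 1, blastocysts called 936 against morulae and 2273 against 8C. In 4C against MII (1316) the count was 707 to 858 without MII library 1 or 3 or 4C library 1 or 3.

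Same-numbered libraries of different stages deviated with a median correlation of 0.007 (-0.184 to 0.324, 78 pairs). For libraries of different number it was -0.006 (-0.324 to 0.244, 136 pairs). In a stage of 2 libraries the deviations mirror each other, so these values cannot settle whether some libraries share a donor. With the replicate block, blastocysts against morulae called 1 of the 8 genes, and CLDN6 there had a log2 change of 2.11 (limma adjusted p = 0.0587). AQP11 in blastocysts against 8C embryos had an adjusted p of 0.0511 there.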
